A study of Mus musculus with 6 samples.

Results

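The TCF/LEF transcription factors, beta-catenin and the proteins that join them on chromatin were followed through 10 genes, which were taken by name from the 24736 genes of the deposited table. The genes are the 4 TCF/LEF genes Tcf7, Tcf7l1, Tcf7l2 and Lef1, the beta-catenin gene Ctnnb1, the Groucho/TLE co-repressor genes Tle1, Tle3 and Tle4, and Bcl9 and Pygo2, which encode co-activators recruited by beta-catenin. All 10 were present in the table and passed the filter on low counts. They were compared between undifferentiated mouse embryonic stem cells (ESC) and epiblast-like cells (EpiLC), with 3 biological replicate libraries in each group. Both groups were wild-type cells of a single XY embryonic stem cell line, so each result holds for that line. ESC were harvested at 0 h from knockout DMEM with 10% serum and 1000 U/ml LIF, a medium in which they were propagated on mitotically inactivated mouse embryonic fibroblast feeders. Feeders were depleted by plating before differentiation, and no such step is stated for the ESC harvested at 0 h. EpiLC had spent 48 h, by the sample labels, in N2B27 without serum, to which bFGF (10 ng/ml) and LGK974 (5 µM) had been added. LGK974 blocks Porcupine, the acyltransferase that Wnt ligands need for secretion. The study's account of this model gives the same time, whereas its culture methods give a longer one. The medium, the inhibitor, the time and the feeder layer changed together between the groups and their parts cannot be told apart.

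TCF/LEF proteins bind Wnt-responsive elements through an HMG box. Without beta-catenin they recruit TLE proteins and repress transcription, and stabilised beta-catenin binds their amino terminus and brings in BCL9 and PYGO, which promote transcription. In mouse ESC, TCF7L1 is known as the main repressor of the naive pluripotency network, whereas TCF7 and LEF1 are usually described as activators. Beta-catenin also has a place at adherens junctions, where it links cadherins to alpha-catenin.

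The 4 TCF/LEF genes encode closely related HMG boxes, and the shares below depend on telling their reads apart. The stretch of coding sequence in which Lef1 was most like the other genes is therefore shown. The window of 60 bases was found by comparing annotated coding sequences (GENCODE vM21, GRCm38). Only windows within a single exon were searched. It lies in a single exon of each gene, in the part that encodes the HMG box. Capitals mark the 44 positions at which all 4 genes have the same base.
Lef1 (chr3:131200311-131200370, plus strand): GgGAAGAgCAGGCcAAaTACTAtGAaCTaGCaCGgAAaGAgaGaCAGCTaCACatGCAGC
Tcf7 (chr11:52256772-52256831, minus strand): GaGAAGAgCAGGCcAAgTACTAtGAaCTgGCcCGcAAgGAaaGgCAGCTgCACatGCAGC
Tcf7l1 (chr6:72631044-72631103, minus strand): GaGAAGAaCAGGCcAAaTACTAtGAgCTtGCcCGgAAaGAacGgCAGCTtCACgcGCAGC
Tcf7l2 (chr19:55919527-55919586, plus strand): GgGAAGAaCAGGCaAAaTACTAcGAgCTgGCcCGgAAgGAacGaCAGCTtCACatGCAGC

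Even in this window Lef1 shared 51 bases with Tcf7, 50 with Tcf7l2 and 49 with Tcf7l1. The closest pair was Tcf7l1 and Tcf7l2, with 52 shared bases. The longest run of identical bases between any 2 of the TCF/LEF transcripts was 23 bases, against a read length of 76 bases. The expected counts of all 4 were whole numbers in each of the 6 libraries, so no read was seen to be divided between them and another gene.

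Among the TLE genes, Tle1 and Tle4 were closer. Their transcripts shared an identical coding run of 68 bases, printed here with the best match in Tle3, where capitals mark the 7 bases that differ from the other genes.
Tle1 (chr4:72126252-72126319, minus strand): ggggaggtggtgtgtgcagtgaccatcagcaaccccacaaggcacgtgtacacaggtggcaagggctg
Tle4 (chr19:14454805-14454872, minus strand): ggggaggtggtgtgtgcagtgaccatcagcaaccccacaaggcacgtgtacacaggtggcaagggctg
Tle3 (chr9:61412383-61412450, plus strand): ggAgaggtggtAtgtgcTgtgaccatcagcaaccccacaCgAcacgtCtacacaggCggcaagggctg

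No other pair among the 10 genes shared a run of more than 23 bases. In 3 of the 6 libraries the expected counts of Tle1 and Tle4 carried fractions, such as 773.05 for Tle1 and 3226.95 for Tle4 in ESC replicate 2. Their sum was a whole number in every library, so some reads were divided between these genes by the quantification. The values of Tle1 and Tle4 were used as deposited.

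Library totals were 22118416, 16967741 and 28521848 expected counts in ESC replicates 1 to 3. They were 35096210, 33982359 and 30683164 in EpiLC replicates 1 to 3. The groups did not overlap in depth, and ESC replicate 2 had the lowest total. The summed level of 7 naive pluripotency markers was 1968 to 2618 TPM in ESC and 59.2 to 84.1 TPM in EpiLC, and the sum of 5 EpiLC markers was 293 to 399 TPM and 2055 to 2125 TPM, respectively, where TPM is RSEM's level scaled for transcript length and library size. The ESC libraries differed in the summed levels of markers of other cell types. The summed level of 15 fibroblast markers was 380, 1737 and 139 TPM in ESC replicates 1 to 3 and 97.9 to 109 TPM in EpiLC. The sum of 6 primitive streak markers was 500, 194 and 161 TPM in the ESC replicates, and 7.84, 7.90 and 49.8 TPM in the EpiLC replicates. Lum, a fibroblast marker, was under 1 TPM in all 6 libraries. In bulk libraries fewer cells of a type and less RNA per cell cannot be told apart.

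Between ESC and EpiLC, 6 of the 10 genes changed in the edgeR quasi-likelihood test, with Benjamini-Hochberg adjustment across 14468 genes and a threshold of 0.05. Lef1, Tcf7l1, Bcl9 and Tle4 rose, which is 4 of 10 where 22.6% of all genes tested rose. Tle3 and Tle1 fell, which is 2 of 10 where 22.8% of all genes fell. Tcf7, Tcf7l2, Ctnnb1 and Pygo2 did not pass the test. The share that fell is close to the background, and with 10 genes neither share was read as a result about the group. The TPM of the groups did not overlap for 8 of the 10 genes, against 59.5% of all genes tested. The median log2 fold change was 0.11 for the 10 genes and -0.0017 for all genes, and the median absolute log2 fold change was 0.35 and 0.38. Only Lef1 and Tle3 changed by more than 1 on the log2 scale. The p-values measure the spread between replicate cultures of a single line.

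**Figure D1:**
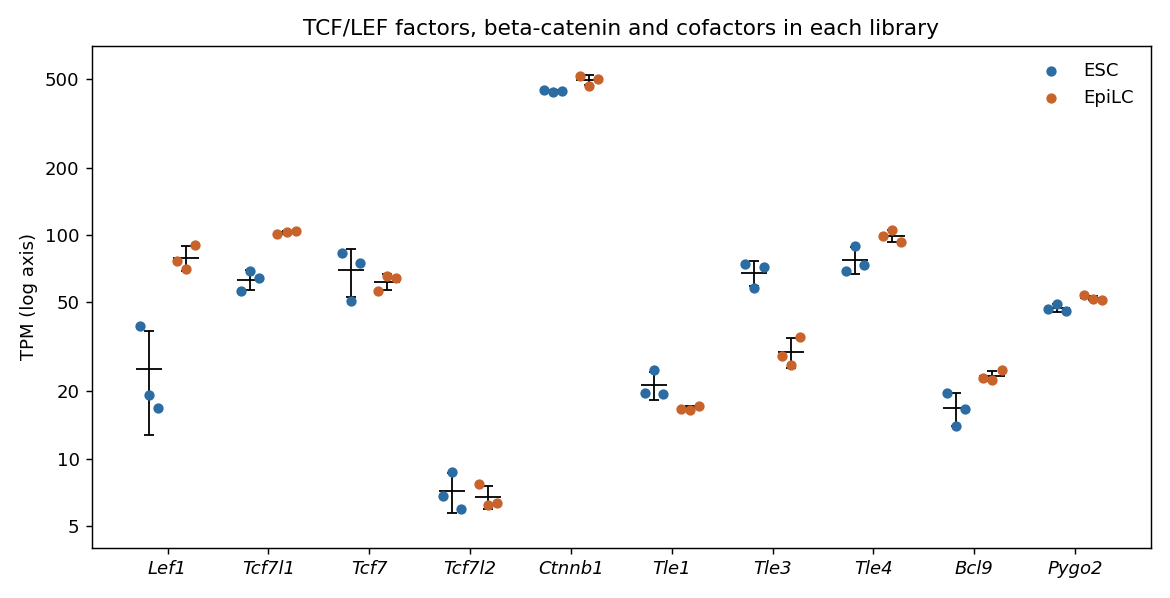
Level of each of the 10 genes in TPM (log axis) in 3 ESC libraries (blue) and 3 EpiLC libraries (orange); points are libraries, the long bar is the mean and the whiskers the SD. Lef1 and Tcf7l1 lie higher in every EpiLC library, Tle3 lies lower, and Tcf7 and Tcf7l2 overlap between the groups.

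Lef1, an HMG-box factor that is itself a Wnt target in many tissues, showed the largest change of the 10 genes. It was at 39.2, 19.2 and 16.8 TPM in ESC replicates 1 to 3 and at 76.3, 70.4 and 90.6 TPM in EpiLC replicates 1 to 3. All EpiLC libraries lay above all ESC libraries, and ESC replicate 1 stood above the other ESC libraries. Its mean rose from 25.1 ± 12.3 to 79.1 ± 10.4 TPM (SD, n = 3), a 2.96-fold rise in the fit with a log2 fold change of 1.57 ± 0.31 (SE) and an edgeR adjusted p of 0.00699. Lef1 was the most variable of the 10 genes among ESC, with a coefficient of variation of 49.1%. ESC replicate 1, where Lef1 was highest, also had the highest level of the streak markers, and EpiLC replicate 3, the highest for Lef1 among EpiLC, had the highest streak sum of that group. T (Brachyury), a streak gene and Wnt target, was at 180, 73.0 and 40.0 TPM in the ESC libraries and at 0.87, 0.69 and 30.7 TPM in the EpiLC libraries. Lef1 and the streak sum thus stood in the same order among the ESC replicates, while the group difference of Lef1 ran opposite to that of the streak sum. Their part in the level of Lef1 was not tested. Without ESC replicate 1 the log2 fold change of Lef1 was 2.02, and without EpiLC replicate 3 it was 1.46 (edgeR adjusted p = 6.4e-04 and 0.0282).

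Tcf7l1, the factor best known as a repressor in ESC, also rose. Its level was 56.0, 68.9 and 64.3 TPM in ESC and 101, 103 and 104 TPM in EpiLC. The EpiLC libraries were nearly equal to each other and lay above every ESC library. The mean rose from 63.0 ± 6.53 to 102.7 ± 1.59 TPM (SD, n = 3), with a log2 fold change of 0.65 ± 0.09 (SE) and an edgeR adjusted p of 0.00137. The change of Tcf7l1 was smaller than that of Lef1 but more even among libraries.

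Tcf7, which encodes TCF1, did not pass the test. It was at 82.8, 50.5 and 75.1 TPM in ESC and at 56.0, 65.3 and 64.3 TPM in EpiLC. ESC replicate 2 was the lowest of all 6 libraries and ESC replicates 1 and 3 were the highest, so the groups overlapped. The log2 fold change was -0.22 with an approximate 95% interval of -0.57 to 0.13 (edgeR adjusted p = 0.340). The intervals given here are normal approximations from the SE and are narrower than the quasi-likelihood test would give. ESC replicate 2 was the library with the highest fibroblast marker sum, and any part of other cells in its Tcf7 level was not tested. Without that library the log2 fold change was -0.41 and passed the threshold (edgeR adjusted p = 0.0103).

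Tcf7l2, which encodes TCF4 and is prominent in gut and brain, was the least abundant of the 10 genes. Its values were 6.81, 8.76 and 5.96 TPM in ESC and 7.68, 6.21 and 6.35 TPM in EpiLC, and the groups overlapped. The log2 fold change was -0.12 with an approximate 95% interval of -0.45 to 0.20 (edgeR adjusted p = 0.571). Without ESC replicate 2 the log2 fold change of Tcf7l2 was 0.025 (edgeR adjusted p = 0.898).

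**Figure D2:**
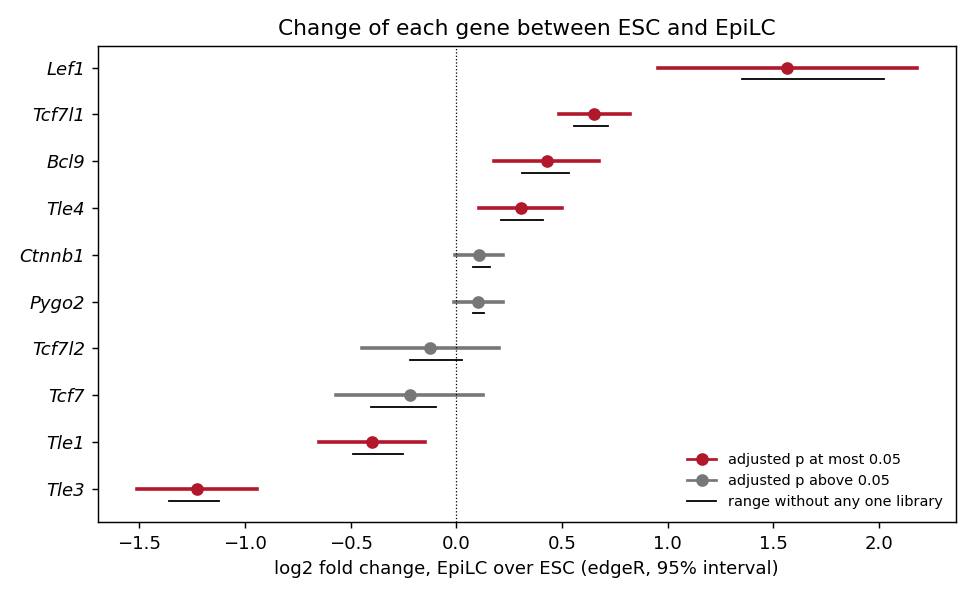
Log2 fold change (EpiLC over ESC) of each gene from the edgeR fit, with its approximate 95% interval (coloured line). The black line is the range of the estimate when any single library was left out. Red marks genes past the adjusted p threshold of 0.05; Lef1 at 1.57 and Tle3 at -1.23 lie farthest from 0, and the range of Tcf7l2 crosses 0.

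Together the TCF/LEF genes amounted to 184.8, 147.3 and 162.1 TPM in ESC and to 241, 244.9 and 265.5 TPM in EpiLC. Every EpiLC library lay above every ESC library. The mean sum was 164.7 ± 18.9 TPM in ESC and 250.4 ± 13.2 TPM in EpiLC (SD, n = 3), 1.52 times the ESC level. The exact permutation test over libraries gave p = 0.1 (two-sided), which is the smallest p that 3 libraries against 3 can give.

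The make-up of this pool differed between the groups. Lef1 held 21.2%, 13.0% and 10.4% of the summed TCF/LEF TPM in the ESC libraries and 31.7%, 28.7% and 34.1% in the EpiLC libraries. Tcf7 held 44.8%, 34.3% and 46.3% in ESC and 23.2%, 26.7% and 24.2% in EpiLC. Neither share overlapped between the groups, with Lef1 above and Tcf7 below in EpiLC. The mean share of Lef1 was 14.9 ± 5.65% in ESC and 31.5 ± 2.70% in EpiLC, and that of Tcf7 was 41.8 ± 6.55% and 24.7 ± 1.78% (SD, n = 3; exact permutation test, p = 0.1 for each, the smallest possible). Tcf7 held a smaller share in EpiLC although its own level did not pass the test, as the sum over the genes was larger there. Tcf7l1 held 38.9 ± 8.25% in ESC and 41.1 ± 1.58% in EpiLC, and its groups overlapped (SD, n = 3; exact permutation p = 0.8). Its ESC shares of 30.3%, 46.7% and 39.6% spanned the range that holds the EpiLC shares of 41.9%, 42.0% and 39.2%. Tcf7l2 held 4.44 ± 1.31% in ESC and 2.71 ± 0.423% in EpiLC (SD, n = 3; exact permutation p = 0.1).

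**Figure D3:**
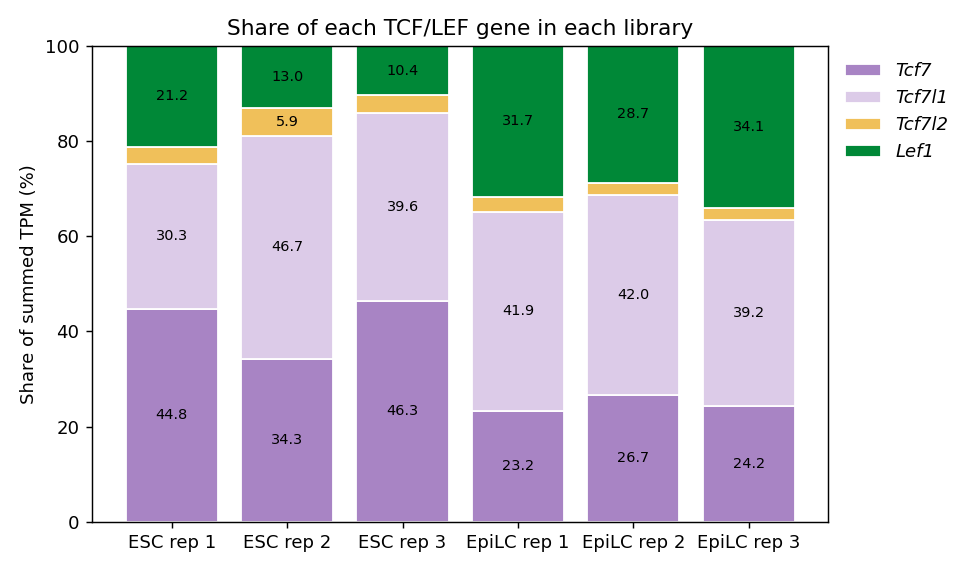
Share of Tcf7, Tcf7l1, Tcf7l2 and Lef1 in their summed TPM (%), 1 bar per library, with shares above 4% printed. Lef1 takes 28.7% to 34.1% in the EpiLC libraries and 10.4% to 21.2% in the ESC libraries, while Tcf7 takes 23.2% to 26.7% and 34.3% to 46.3%.

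The order of the genes by TPM changed with the shares. Tcf7 was first and Tcf7l1 second in ESC replicates 1 and 3, and the order of these genes was the opposite in ESC replicate 2, so they could not be ranked against each other in ESC. Lef1 came after them and Tcf7l2 last in all ESC libraries. In all EpiLC libraries the order was Tcf7l1, Lef1, Tcf7 and Tcf7l2, and no neighbours in that order overlapped. The ratio of Lef1 to Tcf7 was 0.473, 0.380 and 0.224 in ESC and 1.36, 1.08 and 1.41 in EpiLC (exact permutation p = 0.1, n = 3 per group). The ratio of Tcf7l1 to Tcf7 was 0.965 ± 0.356 in ESC and 1.67 ± 0.122 in EpiLC without overlap (SD, n = 3; exact permutation p = 0.1). The ratio of Lef1 to Tcf7l1 was 0.700 in ESC replicate 1, above its value of 0.684 in EpiLC replicate 2, so these groups overlapped (exact permutation p = 0.2, n = 3 per group).

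Lef1 also differed in the estimated effective length of its transcripts. RSEM weights the transcript isoforms of a gene, and the ratio of expected count to TPM gives the mean effective length of the isoforms in use, here relative to the median gene of each library. For Lef1 it was 1.178, 1.179 and 1.178 in ESC and 1.139, 1.149 and 1.138 in EpiLC. The EpiLC values were all lower, by 3.07% on average, with no overlap (exact permutation p = 0.1, n = 3 per group). The log2 change of -0.045 compares with a median absolute change of 4.3e-04 and a 90th percentile of 0.0079 over the 9015 genes with at least 5 TPM in every library. The mean effective length of each of the other 9 genes changed by less than 1%. Tcf7 did not overlap either (exact permutation p = 0.1), at a change of only -0.024%. The RefSeq annotation at hand lists 7 curated transcripts for Lef1. The release that was used for quantification may hold another set, and gene-level values do not show which isoforms the difference in length refers to.

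The promoter of Lef1 and that of Tle3, the genes that changed most in each direction, are given for reference. Each is the 250 bases before the first start site listed for the gene in the promoter set (RefSeq, GRCm38.p6). The gene annotation places the start of Tle3 at 61372326, within the stretch printed for it.
Lef1 (chr3:131110047-131110296, plus strand): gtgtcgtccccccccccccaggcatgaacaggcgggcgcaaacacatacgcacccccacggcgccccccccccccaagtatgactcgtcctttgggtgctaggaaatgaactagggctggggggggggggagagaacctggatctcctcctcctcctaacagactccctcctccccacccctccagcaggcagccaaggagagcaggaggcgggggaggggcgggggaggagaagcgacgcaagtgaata
Tle3 (chr9:61372116-61372365, plus strand): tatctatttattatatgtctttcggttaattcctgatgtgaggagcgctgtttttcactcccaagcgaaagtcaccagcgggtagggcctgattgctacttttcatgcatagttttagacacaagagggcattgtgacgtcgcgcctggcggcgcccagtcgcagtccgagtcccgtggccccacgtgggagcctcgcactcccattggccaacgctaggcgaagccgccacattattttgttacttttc

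Windows from 250 bases before to 50 bases after each start site were searched on both strands for the TCF motifs CTTTGAA and CTTTGAT. None of the 19 windows of the 10 genes, some of which overlap each other, held these letters, whereas 8.65% of all 32851 windows did. The SOX motifs CTTTGTT and CATTGTT were found in 2 of the 19 windows, both of Tcf7l2, and in 9.36% of all windows.

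Ctnnb1, whose product is both the co-activator of TCF/LEF factors and a junction component, was the most abundant of the 10 genes by a wide margin and ranked between 258 and 336 among all genes in each library. It was at 445, 436 and 442 TPM in ESC and at 513, 464 and 496 TPM in EpiLC. The EpiLC libraries all lay above the ESC libraries, by a small amount. The log2 fold change of 0.11 ± 0.06 (SE) had an approximate 95% interval of -0.0060 to 0.22 and did not pass the test (edgeR adjusted p = 0.167). On log2(TPM + 1) with limma the log2 fold change was 0.15 and passed (adjusted p = 0.0414). The level of Ctnnb1 was 2.70 ± 0.275 times the summed TCF/LEF level in ESC and 1.97 ± 0.144 times in EpiLC without overlap (SD, n = 3; exact permutation p = 0.1). These are mRNA levels and give no measure of beta-catenin protein, whose amount is set largely by its degradation.

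The TLE co-repressors moved in different directions. Tle3 fell from 74.0, 57.7 and 72.0 TPM in ESC to 28.8, 26.2 and 35.1 TPM in EpiLC. The groups lay far apart, and ESC replicate 2 was the lowest of its group. The level was 2.34-fold lower in EpiLC in the fit, with a log2 fold change of -1.23 ± 0.15 (SE) and an edgeR adjusted p of 8.9e-04.

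Tle4 was at 69.2, 89.5 and 73.7 TPM in ESC and at 99.0, 105.3 and 92.8 TPM in EpiLC. The EpiLC libraries lay above the ESC libraries, with ESC replicate 2 close to EpiLC replicate 3. Tle4 rose with a log2 fold change of 0.30 ± 0.10 (SE; edgeR adjusted p = 0.0445). Tle1, the least abundant of the 3, was at 19.7, 24.9 and 19.5 TPM in ESC and at 16.8, 16.5 and 17.3 TPM in EpiLC. The EpiLC libraries lay below the ESC libraries, and ESC replicate 2 stood above the rest. Tle1 fell by 0.40 ± 0.13 on the log2 scale (SE; edgeR adjusted p = 0.0392). Tle1 and Tle4 were both highest among ESC in replicate 2, the library with most fibroblast marker RNA. Any part of fibroblasts in these levels was not tested. Without ESC replicate 2 the log2 fold change of Tle1 was -0.25 and that of Tle4 was 0.41 (edgeR adjusted p = 0.0367 and 0.00485). The call of Tle1 was lost without any 1 of the EpiLC libraries (edgeR adjusted p from 0.0766 to 0.135), and that of Tle4 was kept only without ESC replicate 2 among the 6 fits that left out a library.

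Added over Tle1, Tle2, Tle3 and Tle4, the full-length TLE genes came to 163.4, 173.1 and 165.7 TPM in ESC and to 144.9, 148.3 and 145.3 TPM in EpiLC. The sum was 167.4 ± 5.06 TPM in ESC and 146.2 ± 1.87 TPM in EpiLC without overlap (SD, n = 3; exact permutation p = 0.1, the smallest possible). The make-up differed more than the sum. Tle3 held 45.3%, 33.3% and 43.5% of it in ESC and 19.9%, 17.6% and 24.1% in EpiLC. Tle4 held 42.3%, 51.7% and 44.5% in ESC and 68.4%, 71.0% and 63.8% in EpiLC. Neither share overlapped between the groups (exact permutation p = 0.1 for each, n = 3 per group). The share of Tle1 was 12.7 ± 1.45% and 11.5 ± 0.374% and overlapped (SD, n = 3; exact permutation p = 0.2). Tle3 and Tle4 could not be ranked in ESC, where Tle3 was ahead in replicate 1 and Tle4 in replicates 2 and 3. In EpiLC Tle4 was ahead in all libraries, with a ratio of Tle3 to Tle4 of 0.291, 0.249 and 0.378. The summed TCF/LEF level was 0.987 ± 0.140 times the summed TLE level in ESC and 1.71 ± 0.0980 times in EpiLC without overlap (SD, n = 3; exact permutation p = 0.1).

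**Figure D4:**
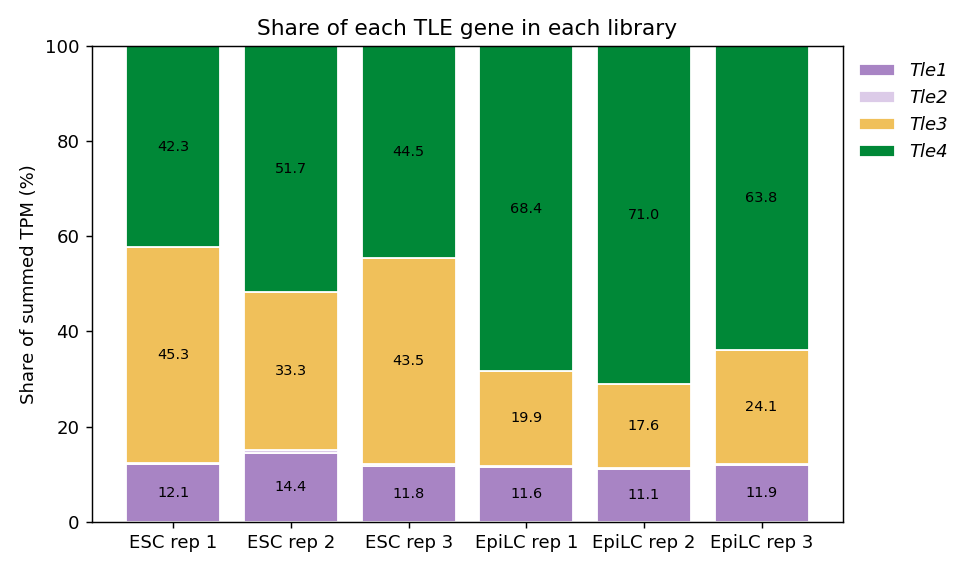
Share of Tle1, Tle2, Tle3 and Tle4 in their summed TPM (%), 1 bar per library, with shares above 4% printed; Tle2 is under 1% throughout. Tle4 takes 63.8% to 71.0% in the EpiLC libraries and 42.3% to 51.7% in the ESC libraries, and Tle3 takes 17.6% to 24.1% and 33.3% to 45.3%.

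BCL9 binds beta-catenin and PYGO2 binds BCL9 and methylated histone H3 through its PHD finger. Bcl9 was at 19.7, 14.02 and 16.8 TPM in ESC and at 23.0, 22.5 and 24.9 TPM in EpiLC. All EpiLC libraries lay above the ESC libraries, of which replicate 2 was the lowest. Bcl9 rose with a log2 fold change of 0.43 ± 0.13 (SE; edgeR adjusted p = 0.0304). The call was kept in 2 of the 6 fits that left out a library (edgeR adjusted p from 0.0180 to 0.0951). Pygo2 was at 46.7, 49.4 and 45.6 TPM in ESC and at 53.7, 52.0 and 51.4 TPM in EpiLC. These groups did not overlap, but the log2 fold change of 0.10 had an approximate 95% interval of -0.013 to 0.22. It did not pass the test (edgeR adjusted p = 0.192). The ratio of Bcl9 to Pygo2 was 0.358 ± 0.0692 in ESC and 0.448 ± 0.0307 in EpiLC (SD, n = 3; exact permutation p = 0.1).

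The genes around this complex were taken from lists of known roles. Outside the 10 genes, 66 listed genes were tested, of which 17 rose and 25 fell (22.6% and 22.8% of all genes tested did so), with a median log2 fold change of -0.10. The same 22.6% and 22.8% are the background for each list below, and counts near them were not read as results about a list. Of the other TLE family genes, 2 of 3 fell. Aes, a short TLE relative without the WD40 repeats, fell from 96.2 ± 20.1 to 30.2 ± 3.22 TPM (SD, n = 3), by 1.72 on the log2 scale (edgeR adjusted p = 4.0e-04). Tle6 fell by 2.08 at a lower level, from 2.37 to 0.583 TPM (edgeR adjusted p = 0.00214). Tle2 was at 0.21 to 1.03 TPM and did not pass (log2 fold change -1.23, edgeR adjusted p = 0.0521). It passed with a replicate block (edgeR adjusted p = 0.0397) and in 1 of the 6 fits that left out a library (edgeR adjusted p = 0.0443).

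Among 10 further genes of the Wnt enhanceosome and its co-activators, 2 rose and 3 fell, with a median of -0.07. The single-stranded DNA binding protein genes Ssbp2 and Ssbp3, whose products join the enhanceosome with LDB1, rose by 1.02 ± 0.19 and 0.76 ± 0.10 (log2, SE). Ssbp4 fell by 0.96 ± 0.14, and Ldb1, which encodes the dimerising adaptor, fell by 0.88 ± 0.08 from 164 ± 13.7 to 92.6 ± 2.81 TPM (SD, n = 3). Pygo1, the paralog of Pygo2, fell by 1.10 ± 0.26 and was at 1.25 TPM in EpiLC. The edgeR adjusted p of these 5 genes ran from 3.7e-04 to 0.0133, and the call of Pygo1 was lost without EpiLC replicate 2 (edgeR adjusted p = 0.0586).

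Of 14 nuclear inhibitors and modifiers of TCF, 8 rose and 2 fell, with a median of 0.25. Ctbp2, a co-repressor, rose by 0.66 ± 0.06 to 412 TPM and Hipk1, a kinase of TCF proteins, rose by 0.62 ± 0.10 (log2, SE). Sox18 rose by 1.37 ± 0.34, but stayed between 0.89 and 1.36 TPM in EpiLC, and its call was lost with DESeq2 (adjusted p = 0.0504) and without ESC replicate 1, EpiLC replicate 2 or EpiLC replicate 3 (edgeR adjusted p up to 0.0659). Sox17, an HMG-box protein that can antagonise TCF and is also a primitive endoderm marker, fell by 2.68 ± 0.40, and Tnik, a kinase that binds TCF4, fell by 1.20 ± 0.26. The sum of 6 primitive endoderm markers, Sox17 among them, was 67.9, 43.7 and 34.2 TPM in ESC and 9.15 to 10.4 TPM in EpiLC. Any part of primitive endoderm cells in the level of Sox17 was not tested. The edgeR adjusted p of the 5 named genes ran from 4.4e-04 to 0.0161.

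The destruction complex and its regulators, which set beta-catenin turnover, gave 5 genes that rose and 3 that fell of 15, with a median of 0.17. Apc2, Dvl1 and Amer1 rose by 0.97 ± 0.17, 0.74 ± 0.16 and 0.58 ± 0.11 (log2, SE). Dvl2 and Csnk1a1 fell by 0.33 ± 0.07 and 0.24 ± 0.07, and the call of Csnk1a1 was kept only without ESC replicate 2 among the 6 fits that left out a library (edgeR adjusted p up to 0.106). The call of Dvl2 was lost without EpiLC replicate 1 (edgeR adjusted p = 0.0528). Axin2, both a scaffold of the complex and a direct TCF target, was at 48.8, 33.1 and 29.0 TPM in ESC and at 8.04, 8.85 and 13.2 TPM in EpiLC. Axin2 fell by 1.93 ± 0.26 on the log2 scale (SE), and the libraries that were highest for Axin2 in each group were those that were highest for Lef1. The edgeR adjusted p of these 6 genes ran from 0.00143 to 0.0278.

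At the adherens junction, where another pool of beta-catenin resides, 2 of 7 genes rose and 3 fell, with a median of -0.20. Cdh1, which encodes E-cadherin, rose 2.09-fold from 302 ± 34.5 to 655 ± 34.0 TPM (SD, n = 3), while Cdh2 (N-cadherin), Jup (plakoglobin) and Ctnna1 (alpha-catenin) fell by 1.32, 0.91 and 0.42 on the log2 scale. Ctnna2 rose by 2.79 from 3 to 4 reads a library in ESC to 24 to 51 in EpiLC. The edgeR adjusted p of these 5 genes ran from 3.0e-04 to 0.00888. Cdh1 thus stood above Ctnnb1 in EpiLC and below it in ESC by TPM.

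None of 12 TCF target genes rose and 7 fell, with a median of -1.23, where 22.8% of all genes tested fell. Of the 7 calls, that of Znrf3 was kept in 2 of 14 alternatives and that of Sall4 in 8 of 14, and these genes, which fell by 0.26 and 0.27 on the log2 scale, are named here after their values were seen. The list holds T, which is also a streak marker and did not pass (log2 fold change -3.23, edgeR adjusted p = 0.0925). Without EpiLC replicate 3 its log2 fold change was -7.00 and passed (edgeR adjusted p = 0.00399). The streak sum was lower in every EpiLC library (7.84 to 49.8 TPM) than in any ESC library (161 to 500 TPM), and its part in the fall of the targets was not tested. Sp5 was at 56.6, 27.4 and 23.6 TPM in ESC, was listed at 0 in EpiLC replicate 2 and was at 0.09 and 3.39 TPM in EpiLC replicates 1 and 3. Notum, which encodes a Wnt deacylase, fell by 4.19 ± 0.32 (log2, SE). Cdx1 fell from 43, 84 and 50 counts in ESC to 1, 0 and 7 in EpiLC. The fitted size of the fall depended on EpiLC replicate 3, the highest EpiLC library for both genes. The log2 fold change was -5.10 for Cdx1 and -5.03 for Sp5 with that library and -7.27 and -9.54 without it. Without ESC replicate 1 it was -5.33 for Cdx1 and -4.54 for Sp5, and without ESC replicate 2 it was -4.48 and -5.21. The edgeR adjusted p of Sp5, Cdx1 and Notum was 0.0141, 0.00434 and 1.9e-04. All 6 listed naive genes that TCF7L1 is known to repress fell, by 4.30 to 6.59 on the log2 scale. They were Nanog, Esrrb, Tfcp2l1, Klf2, Nr5a2 and Tbx3 (edgeR adjusted p from 6.5e-06 to 7.0e-04), of which Nanog, Esrrb, Tfcp2l1, Klf2 and Tbx3 also served as naive markers here. EpiLC replicate 3 had the highest Nanog of its group, at 22.5 TPM against 7.72 and 5.95, and without it the log2 fold change of Nanog was -5.65 in place of -4.81. The part of Tcf7l1 in their fall was not tested.

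**Figure D5:**
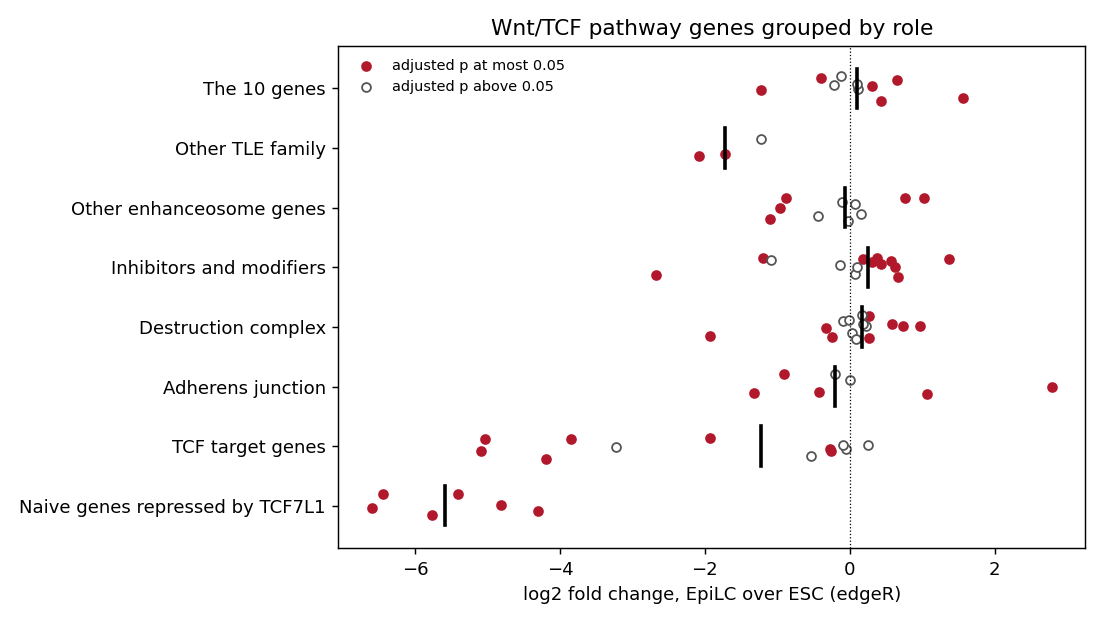
Log2 fold change (EpiLC over ESC, edgeR) of each tested gene, grouped by role, with the median of each group as a black bar; red points pass the adjusted p threshold of 0.05 and open points do not. The 10 genes centre near 0, while the 6 naive genes repressed by TCF7L1 lie between -6.59 and -4.30; Axin2 is shown in both of its groups.

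Genes with the most similar pattern to each TCF/LEF gene were found by the Pearson correlation of log2 CPM (library-scaled counts) over the 6 libraries, among tested genes with a mean of at least 10 TPM. The values describe these 6 libraries, which share culture conditions within each group. They are the highest among 8479 candidates for Tcf7, Tcf7l1 and Lef1 and 8480 for Tcf7l2. For Lef1 they were Vrk2, Eps15 and Bckdk (r = 0.998, 0.996 and 0.995). For Tcf7l1 they were Gfer, Cbr3 and Dtx2 (r = 0.997, 0.996 and 0.996). Cbr3 went from 11.7 to 19.1 TPM in ESC to 68.7 to 79.9 TPM in EpiLC, a wider span than that of Tcf7l1, so a like pattern did not mean a like size of change. For Tcf7 they were Ift81, N4bp2 and Sympk (r = 0.993, 0.993 and 0.982), all with their lowest level in ESC replicate 2 and their highest in ESC replicate 1. For Tcf7l2 they were Epc2, Irak1 and Mpv17 (r = 0.980, 0.964 and 0.962), each highest in ESC replicate 2.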

How the data were processed

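Poly(A) RNA of 3 ESC and 3 EpiLC cultures was sequenced as 76-base single-end strand-specific reads. Per the submitters' processing notes and the study's methods, the authors trimmed reads with cutadapt 1.16 and aligned them with STAR 2.5.2a to mm10 RefSeq genes under RSEM 1.3.0, which gave the deposited expected counts and TPM per gene. RSEM divides reads that match several genes, so 4.27% to 4.65% of genes per library had an expected count that was not whole (tolerance 0.001). The deposited table holds no other measurement.

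Expected counts were rounded and tested with edgeR 4.0.16 (quasi-likelihood test, TMM factors of 0.979 to 1.02, filterByExpr, 14468 of 24736 genes kept) in R 4.3.3, with all 6 libraries and no covariate. P-values were Benjamini-Hochberg adjusted over all genes tested, with a threshold of 0.05. Shares, sums and ratios of TPM were computed per library and compared with two-sided exact permutation tests, whose smallest p is 0.1. Alternatives were DESeq2 1.42.0, its size factors within edgeR, upper-quartile factors, no filter, at least 10 counts in every sample, limma 3.58.1 on log2(TPM + 1) and log2(TPM + 0.1), a replicate block, and leaving out each library. On simulated counts with known changes between groups of these sizes edgeR called 151 of 197 changed genes among 14316 (90.9% at 4-fold and 62.2% at 2-fold) with 11 false calls. At these depths 3 counts correspond to 0.0855 to 0.177 CPM, which covers counting error only.

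Named genes were the 10 genes, up to 3 per direction with the largest fold change past the threshold in each other list (all genes of lists of at most 6), the 3 genes most like each TCF/LEF gene, and markers. The 10 genes and all lists were chosen with earlier results of these data known. Same-numbered ESC and EpiLC libraries deviated from their group means with correlations across genes of 0.0067, 0.19 and 0.17, and the numbers were not treated as pairs. Gene coordinates and transcripts came from GENCODE vM21 and promoters from RefSeq (GRCm38.p6). Protein sequences were not used here.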

Additional observations from a re-analysis of the deposited data

How the results depend on the processing

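Lef1, Tcf7l1 and Tle3 kept their direction and passed the threshold in 14 of 14 alternatives. The differences in the shares of Lef1, Tcf7 and Tcf7l2 and in the TCF/LEF sum kept their direction with CPM in place of TPM and without any 1 library, though that of Tcf7l2 moved from -1.73 to -0.976 percentage points without ESC replicate 2. The Tcf7l1 share, whose groups overlapped, went from 2.18 to -2.12 percentage points without ESC replicate 1. Leaving out a library gave 2 to 4 of the 10 genes higher and 1 to 3 lower, with Tcf7 joining Tle1 and Tle3 without ESC replicate 2, and over all genes 2144 to 3572 higher and 2100 to 3609 lower, the fewest without EpiLC replicate 1. Tle4 and Bcl9 both missed the threshold without ESC replicate 3 and without EpiLC replicates 1, 2 or 3, and Tle4 also without ESC replicate 1. The limma fits on log2(TPM + 1) and log2(TPM + 0.1) gave 1 gene lower, Tle3, and 5 higher, with Ctnnb1 added. With DESeq2's size factors Tle4 missed the threshold (edgeR adjusted p = 0.0504). The log2 fold change of Tcf7l2 ran from -0.22 to 0.025 over these fits, reversing to 0.025 without ESC replicate 2. The cause was not tested beyond the smaller number of libraries. With a replicate block 4 of the 10 genes were higher and 2 lower, as without it, and 2979 and 3106 of all genes, and Lef1 had a log2 fold change of 1.66 (edgeR adjusted p = 0.00766); the block changed no call among the 10 genes. The shared numbers are not known to mark a shared culture day. Differences in share and sum cannot fall below p = 0.1 in an exact permutation test of 3 libraries a group, and Tcf7l2 rests on 278 to 517 counts a library.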
